A study of Mus musculus with 11 samples.

Results

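The regions described here are the open chromatin peaks of naive mouse CD4 T cells that lie inside the first intron of a gene and more than 1000 bases from the nearest annotated transcription start. They were chosen by position alone: the annotation of the peak had to read intron 1, and the absolute distance to the nearest start had to exceed 1000 bases. This took 6311 of 45508 listed peaks (13.9%). A further 2208 of the 8519 first-intron peaks lay within 1000 bases of a start and were left out. Open chromatin was profiled by ATAC-seq, where a transposase cuts and tags accessible DNA, in 11 libraries of 10000 sorted cells each from untreated mice.

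All 4 populations were CD4+, negative for a Foxp3-RFP reporter and low for CD44, taken from spleen and lymph nodes. Every mouse carried the Nr4a1-EGFP transgene Tg(Nr4a1-EGFP)GY139Gsat, called Nur77-GFP in the labels, and the Foxp3 targeted mutation Foxp3tm1Flv on a C57/BL6 background. Their ages were not given. Population A was Nur77-GFP low and Ly6C positive (2 libraries, mice 1 and 3). Population B was Nur77-GFP intermediate and Ly6C positive, and population C was Nur77-GFP intermediate and Ly6C negative (3 libraries each). Population D was Nur77-GFP high and Ly6C negative (3 libraries, mice 1, 2 and 3). GFP and Ly6C change together between A and D, so the part of each cannot be told apart in that comparison. The transgene reports transcription from Nr4a1 regulatory DNA, a stand-in for T cell receptor signalling and not a measure of it.

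The first intron is commonly the longest intron of a mammalian gene and is a usual place for enhancers, the stretches of regulatory DNA that transcription factors open and that act on a promoter at some distance. Accessibility of such a region marks bound or recently bound DNA and does not by itself say which gene is served. Naive T cells receive weak signals from self peptides, and Nr4a1 is switched on rapidly by the T cell receptor, and GFP level is used as a stand-in for that signalling.

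The deposited table gives a position and values for each peak but not its letters, and no mm10 genome was used here, so sequences of the intronic peaks are not shown. The promoters of 3 genes whose intronic peaks carry the results below are shown instead, from RefSeq on GRCm38.p6, because their promoter peaks did not pass the test while the intronic peaks did. Each window runs from 250 bases before to 50 bases after a transcription start, in the direction of the gene. Capitals mark every match to 7 short motifs searched on both strands: AP-1 TGANTCA, NR4A AAAGGTCA, ETS GGAAGT, RUNX TGTGGT, TCF and LEF CTTTGA, NFAT TGGAAA, and KLF and SP GGGNGGG. Pik3r5 is at chr11:68431875-68432174 on the plus strand, Irak3 at chr10:120201548-120201847 on the minus strand and Il7r at chr15:9529827-9530126 on the minus strand.
Pik3r5: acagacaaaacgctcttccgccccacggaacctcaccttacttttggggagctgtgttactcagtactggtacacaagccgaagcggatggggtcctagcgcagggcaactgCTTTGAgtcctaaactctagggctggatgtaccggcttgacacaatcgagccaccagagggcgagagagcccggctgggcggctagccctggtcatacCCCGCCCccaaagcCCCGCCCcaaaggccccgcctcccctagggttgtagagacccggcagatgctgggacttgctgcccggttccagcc
Irak3: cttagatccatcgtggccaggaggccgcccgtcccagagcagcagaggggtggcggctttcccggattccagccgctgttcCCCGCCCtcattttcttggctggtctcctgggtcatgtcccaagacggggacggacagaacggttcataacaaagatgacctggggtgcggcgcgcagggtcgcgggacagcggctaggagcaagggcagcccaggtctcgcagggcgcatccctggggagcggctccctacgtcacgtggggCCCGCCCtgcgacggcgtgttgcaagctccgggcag
Il7r: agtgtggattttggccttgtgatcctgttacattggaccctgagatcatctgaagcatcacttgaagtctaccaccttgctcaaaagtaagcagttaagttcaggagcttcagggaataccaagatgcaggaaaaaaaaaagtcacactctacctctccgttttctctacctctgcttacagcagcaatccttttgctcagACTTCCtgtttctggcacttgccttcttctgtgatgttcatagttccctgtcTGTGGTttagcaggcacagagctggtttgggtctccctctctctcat
The Pik3r5 window held 1 TCF and LEF match and 2 KLF and SP matches. The Irak3 window held 2 KLF and SP matches, and the Il7r window held 1 ETS and 1 RUNX match. None of these 3 printed windows held an AP-1, NR4A or NFAT match. Not printed are a window at another Irak3 start, which held 0 matches, and windows at Foxp1 starts. Of the Foxp1 windows, that at chr6:99520944-99521243 held 2 NFAT and 4 KLF and SP matches. That at chr6:99266466-99266765 held 1 TCF and LEF match, and that at chr6:99028249-99028548 held 2 KLF and SP matches. Of 32851 promoter windows of this length, 48.1% held a KLF and SP match, 23.8% an ETS match, 21.4% an NFAT match, 16.8% a RUNX match, 16.0% a TCF and LEF match, 7.81% an AP-1 match and 1.51% an NR4A match. A match is a run of letters and says nothing of binding.

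The 6311 first-intron peaks were assigned to 2883 nearest genes, of which 1678 had a single such peak and 71 had 10 or more. Distances to a start had a median of 9.39 kb, quartiles of 3.41 and 21.6 kb and a maximum of 258 kb. In 483 of the 6299 peaks whose host transcript was found in RefSeq (7.67%), the nearest start belonged to a gene other than the one whose intron holds the peak. The long first intron of Bcl2, which encodes a survival factor, held 25 peaks, and 16 of them were assigned to the microRNA gene Mir3473f that starts inside it. Values are in rppm, the reads of a peak scaled by the authors within each library, by a total that is not stated. The median first-intron peak stood at 7.58 rppm, against 7.05 rppm for peaks of later introns, 7.66 rppm for intergenic peaks and 38.1 rppm for peaks within 1000 bases of a start. Together the first-intron peaks took 8.30%, 7.97% and 8.45% of the listed signal in the D libraries, against 8.16% and 7.90% in A, and these ranges overlap.

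Depth differed between libraries: the scaling totals ran from 2597176 to 36859229 reads, so a peak at 10 rppm rested on 26 reads in the D library of mouse 1 and on 369 reads in that of mouse 3. Mouse 3 gave the deepest library of each population. Promoter peaks were present at 11 of 11 marker genes of CD4 T cells. They were present at 1 of 6 B cell genes (Ebf1), 2 of 6 myeloid and dendritic cell genes (Itgam and Cd14) and 2 of 6 CD8 T and NK cell genes (Cd8b1 and Klrd1), while Foxp3 had none. The summed level of these other-cell promoters was 2.31 to 5.21 rppm in D against 3.73 to 3.92 rppm in A for B cells, 9.63 to 16.3 against 14.9 to 18.3 for myeloid cells, and 23.7 to 29.7 against 31.4 to 34.5 for CD8 T and NK cells. Of these promoters limma called that of Klrd1, an NK cell receptor gene, lower in D (log2 -0.81, adjusted p = 0.0288). Their part in the results was not tested.

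Population D against population A sets the highest reporter level against the lowest. Of 6311 first-intron peaks, 618 (9.79%) were higher and 307 (4.86%) lower in D than in A at an adjusted p under 0.05. Among peaks that met the naming rule given under processing, those that gained most lay in Sik3, Cyth3, Arhgap20os, Nek6 and Foxp1. Those that lost most lay in Gramd3, Pik3r5, Gbp11, Znrf3 and Mctp2. That rule left out called gains in Gm17745 (log2 3.20) and Gm9855 (log2 2.98), which were larger than that in Cyth3. It also left out a loss in Rere (log2 -1.41), larger than that in Pik3r5. Across all 45508 peaks, 8.7% were higher and 3.74% lower, so both shares of the first-intron peaks were near the background. Later introns had 12.02% higher and 4.88% lower, intergenic peaks 11.1% and 4.84%, and peaks within 1000 bases of a start 2.74% and 0.90%. These are bulk libraries, in which fewer cells with an open region and less opening per cell cannot be told apart. The median log2 difference was -0.02 over first-intron peaks and -0.04 over all peaks. All log2 differences are on the scale of log2(rppm + 1), which understates ratios at low levels.

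The test was limma with Benjamini-Hochberg adjustment over all 45508 peaks. With the mouse as a block, it called 910 first-intron peaks higher and 556 lower, among them all 618 and 307 above, against 12.5% and 8.79% of all peaks. The counts rest on the 2 libraries of A: without A replicate 1 there were 396 higher and 63 lower, without A replicate 3 there were 342 and 89, and without all libraries of mouse 3 there were 120 and 10. Thinning all libraries to equal reads left 323 higher and 77 lower (6.34% called, against 5.97% of all peaks). A minimum mean of 5 rppm left 289 and 212 of the 4502 peaks that passed it (11.1%, against 8.78%). A model of A and D alone left 445 and 116 (8.89%, against 8.27%). With mouse 3 left out, the share called was lower among first-intron peaks than among all peaks.

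**Figure D1:**
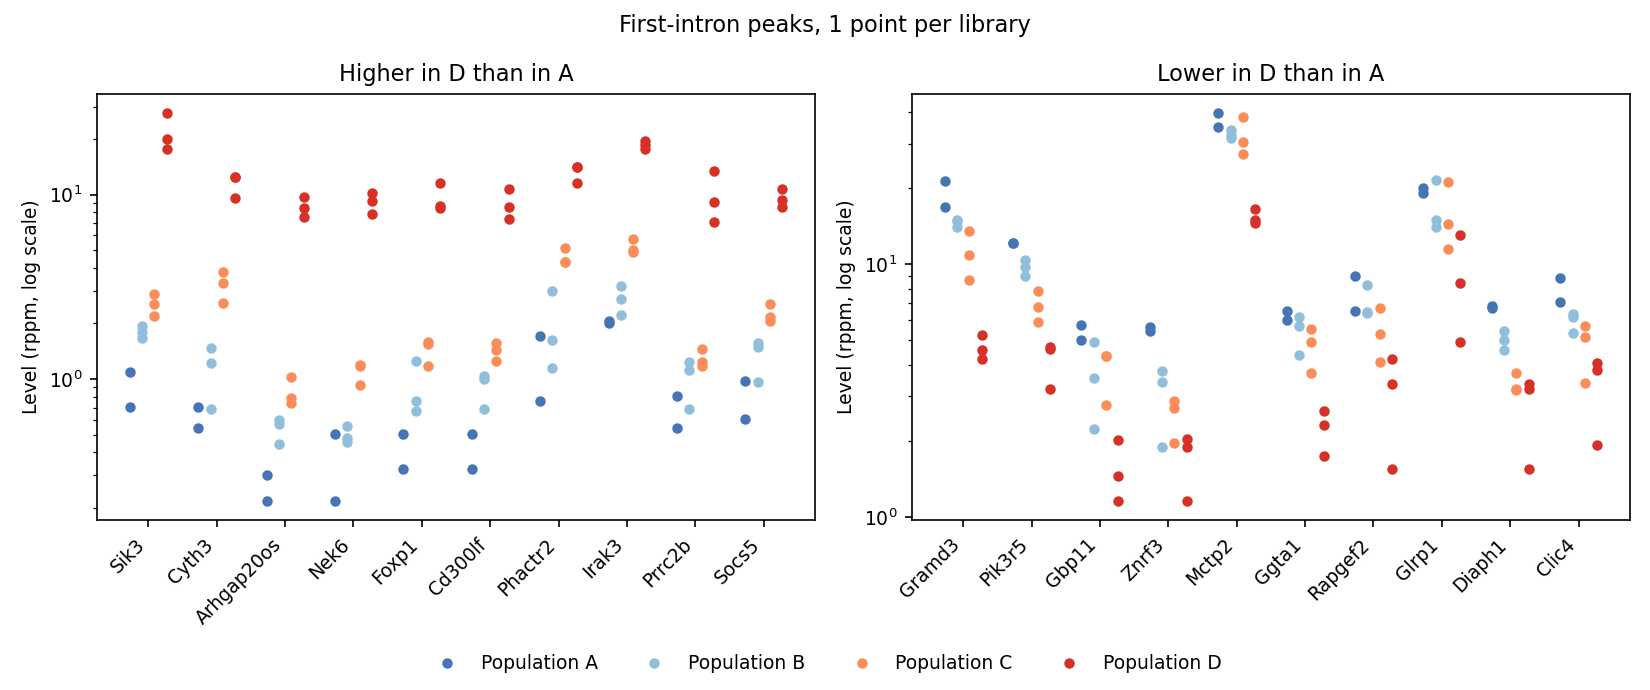
Level in rppm (log scale) of the first-intron peaks with the largest gains (left panel) and losses (right panel) in D against A among those that met the naming rule, 1 point per library, coloured by population. In each peak the 3 D points lie entirely above (left) or below (right) the 2 A points, which the choice of these peaks required, and in the Sik3, Arhgap20os and Nek6 peaks no C or B library exceeds 2.88 rppm.

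The named peaks with the largest gains were nearly closed in A, and such a peak could be listed only if it was higher elsewhere. The first-intron peak of Sik3, which encodes a salt-inducible kinase that phosphorylates class IIa histone deacetylases (chr9:46083228-46084052, 70.8 kb from the nearest start), had 27.7, 17.6 and 20.1 rppm in the D libraries, against 1.09 and 0.705 rppm in A. C had 2.55, 2.88 and 2.19 rppm and B had 1.67, 1.95 and 1.80 rppm, both without overlap above A and below D. Its mean was 24.3 times that of A (log2 3.57, SE 0.20, adjusted p = 3.41e-07). A second Sik3 peak at chr9:46073218-46073820, had 5.39, 4.95 and 3.91 rppm in D against 0.435 and 0.805 rppm in A (log2 1.83, SE 0.21, adjusted p = 4.98e-05). The other 4 first-intron peaks of Sik3 did not pass the test and had log2 differences of -0.36 to 0.12.

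In Cyth3, which encodes an exchange factor for ARF GTPases recruited by the lipid product of PI3-kinase, the peak at chr5:143683610-143684528 had 9.63, 12.5 and 12.5 rppm in D against 0.544 and 0.705 rppm in A (log2 2.94, SE 0.21, adjusted p = 1.51e-06). C, at 3.34, 3.81 and 2.58 rppm, lay between D and A, and B had 1.23, 0.687 and 1.48 rppm. The promoter peak of Cyth3 averaged 50.6 rppm in D and 47.3 rppm in A and did not pass the test (log2 0.10, adjusted p = 0.677).

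The noncoding RNA gene Arhgap20os, which overlaps Arhgap20 on the other strand, held a peak at chr9:51861463-51862263 with 8.47, 7.56 and 9.71 rppm in D against 0.218 and 0.302 rppm in A (log2 2.92, SE 0.17, adjusted p = 3.41e-07). That of Nek6, a kinase of mitosis (chr2:38536137-38536944), had 9.24, 7.85 and 10.3 rppm in D against 0.218 and 0.503 rppm in A (log2 2.90, SE 0.17, adjusted p = 4.81e-07). At both, the highest C or B library had 1.19 rppm. In Foxp1, a transcription factor that holds naive T cells quiescent, the peak at chr6:99340983-99341325 had 11.6, 8.44 and 8.63 rppm in D against 0.326 and 0.503 rppm in A (log2 2.89, SE 0.20, adjusted p = 1.11e-06).

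Further named gains lay in genes of immune signalling. Cd300lf, an inhibitory immune receptor known mainly from myeloid cells, had 10.8, 7.42 and 8.57 rppm in D against 0.326 and 0.503 rppm in A at chr11:115128289-115128962 (log2 2.80, SE 0.18, adjusted p = 8.97e-07). Irak3, which restrains signalling by Toll-like and interleukin 1 receptors, had 18.5, 19.6 and 17.6 rppm in D against 2.07 and 2.01 rppm in A at chr10:120196869-120197612, 4.36 kb from the start whose window is printed above (log2 2.69, SE 0.16, adjusted p = 4.81e-07). Its promoter peak averaged 39.4 ± 3.96 rppm in D and 44.7 ± 1.04 rppm in A (SD, n = 3 and 2) and was not called by limma (adjusted p = 0.513), but was lower with the mouse as a block (adjusted p = 0.0405). Socs5, a suppressor of cytokine signalling, had 10.8, 8.58 and 9.31 rppm in D against 0.979 and 0.604 rppm in A at chr17:87118902-87119668 (log2 2.56, SE 0.19, adjusted p = 1.81e-06).

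The remaining 2 of the 10 named gains were in Phactr2, which binds actin and protein phosphatase 1, and in Prrc2b. Phactr2 had 11.6, 14.1 and 14.2 rppm in D against 0.761 and 1.71 rppm in A (log2 2.70, SE 0.25, adjusted p = 9.47e-06), and there the promoter peak was also higher in D (log2 1.15, adjusted p = 3.34e-04). Prrc2b had 13.5, 7.13 and 9.17 rppm in D against 0.544 and 0.805 rppm in A (log2 2.67, SE 0.23, adjusted p = 4.85e-06). All 10 gains were called without any single library, without mouse 3 and with thinned libraries. Apart from Irak3 and Phactr2, these peaks averaged at most 1 rppm in A. All 54 first-intron peaks at that level were called higher, so the direction of these gains is in part fixed by the listing of peaks.

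Among the named losses, Gramd3, which encodes a lipid-binding GRAM domain protein, had 4.24, 5.24 and 4.58 rppm in D against 21.3 and 16.8 rppm in A at chr18:56440745-56441396 (log2 -1.81, SE 0.18, adjusted p = 1.29e-05). C had 13.5, 8.64 and 10.9 rppm and B had 14.9, 14.1 and 14.8 rppm. The promoter peak of Gramd3 was also lower in D (log2 -0.93, adjusted p = 3.64e-04). Mctp2, a membrane protein with calcium-binding C2 domains, had 14.6, 16.6 and 15.03 rppm in D against 39.8 and 35.03 rppm in A at chr7:72260731-72261804 (log2 -1.23, SE 0.14, adjusted p = 4.02e-05). Gbp11, an interferon-induced guanylate-binding protein, had 1.16, 1.45 and 2.01 rppm in D against 5.76 and 5.03 rppm in A (log2 -1.35, SE 0.25, adjusted p = 0.00245), and its promoter peak was lower as well (log2 -0.93, adjusted p = 0.00437). Its peak centre lies 1008 bases from the start, just past the limit of 1000 bases.

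Znrf3, a ubiquitin ligase that removes Wnt receptors, had 1.16, 1.89 and 2.04 rppm in D against 5.66 and 5.44 rppm in A at chr11:5416947-5417220 (log2 -1.30, SE 0.23, adjusted p = 0.00190). Among the other named losses were Ggta1, a galactosyltransferase (log2 -1.18), Rapgef2, an exchange factor for Rap GTPases (log2 -1.17), and Diaph1, a formin that builds actin filaments (log2 -1.12). Glrp1 (log2 -1.16) and Clic4 (log2 -1.10) complete the 10. With limma, the call was lost for Rapgef2 without A replicate 1 (adjusted p = 0.157) and for Clic4 without A replicate 3 (0.118). Glrp1 was lost without A replicate 1 (0.152), A replicate 3 (0.131), D replicate 2 (0.0669) or D replicate 3 (0.0507). Without mouse 3 only the Gramd3, Pik3r5 and Mctp2 peaks of these 10 were still called.

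At most called peaks the means of C and B lay between those of D and A. The 618 peaks higher in D had median levels of 3.38 rppm in A, 4.07 in B, 4.81 in C and 8.06 in D. The 307 lower peaks had medians of 13.1 rppm in A, 12.3 in B, 10.6 in C and 7.63 in D. Population means ran in the order A, B, C, D in 435 of the 618 (70.4%), and in the reverse order in 197 of the 307 (64.2%). The step between D and C made up a median of 62.3% of the D minus A log2 difference at the higher peaks (quartiles 45.3% and 74.5%) and 66.1% at the lower peaks (50.6% and 76.7%). These orders are descriptions of peaks chosen for D against A.

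**Figure D2:**
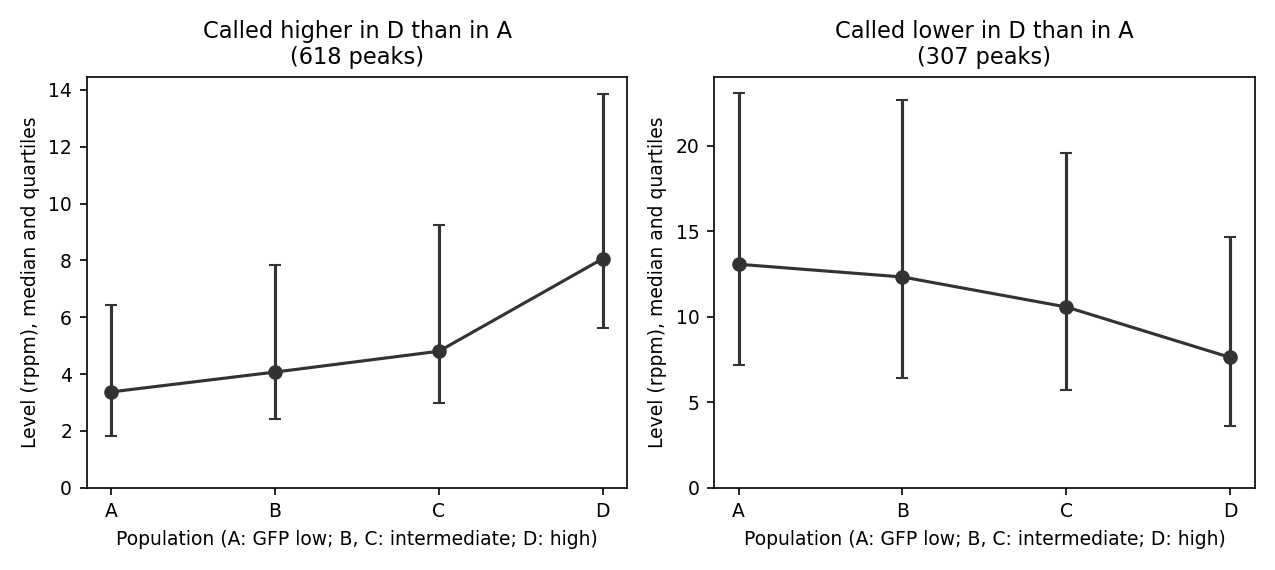
Median level in rppm of the 618 first-intron peaks called higher (left) and the 307 called lower (right) in D against A, by population, with bars from the first to the third quartile over peaks. The median reaches 8.06 rppm in D against 4.81 rppm in C on the left, and 7.63 rppm in D against 10.6 rppm in C on the right.

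Population D against population C compares high with intermediate reporter level in cells that are all Ly6C negative. Here 332 first-intron peaks were higher and 108 lower in D, against 4.51% and 1.49% of all peaks, and with the mouse as a block 523 were higher and 336 lower, against 6.82% and 4.53%. The Sik3 peak had 8.60 times the mean level of C in D (log2 2.67, SE 0.18, adjusted p = 5.81e-06), and the Arhgap20os and Nek6 peaks had log2 differences of 2.37 and 2.26. Below C in D were the Gramd3 peak (log2 -1.07, SE 0.16, adjusted p = 0.00103), a peak of the cannabinoid receptor gene Cnr2 and a peak of Il7r, the receptor for the survival cytokine interleukin 7. Cnr2 (chr4:135904653-135905307) had 1.54, 3.35 and 2.55 rppm in D against 5.89, 6.27 and 5.79 rppm in C (log2 -1.04, SE 0.19, adjusted p = 0.00410). Il7r (chr15:9527073-9527747) had 3.46, 6.98 and 6.62 rppm in D against 10.01, 14.1 and 12.3 rppm in C (log2 -1.01, SE 0.20, adjusted p = 0.00823), and B with 11.2, 13.6 and 11.9 rppm and A with 13.1 and 12.4 rppm overlapped C. Leaving out C replicate 2 gave 219 higher and 57 lower (4.37% called, against 3.95% of all peaks). Without D replicate 3 there were 219 and 97 (5.01%, against 4.44%). Lower calls were 61 without C replicate 1, 49 without C replicate 3 and 57 without D replicate 2. Without mouse 3 there were 58 higher and 1 lower, and the Gramd3, Cnr2 and Il7r calls were lost (adjusted p = 0.106, 0.157 and 0.174).

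Population C against population B compares Ly6C negative with Ly6C positive cells at intermediate reporter level. No first-intron peak was called by limma, against 0.0022% of all peaks, while 259 had an unadjusted p under 0.05. On recovered reads edgeR called 5 higher and 1 lower and DESeq2 called 7 and 2. With the mouse as a block limma called 8 and 2, against 0.193% of all peaks. Without D replicate 1, which enters this comparison only through the shared spread, 2 were higher and 1 lower.

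Population B against population A compares intermediate with low reporter level in Ly6C positive cells. Again no first-intron peak was called by limma, against 0.0% of all peaks, while 181 had an unadjusted p under 0.05. edgeR called 0 and DESeq2 called 4 higher. With the mouse as a block limma called 6, all higher, against 0.0593% of all peaks.

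The step between D and C was then tested against the step between B and A, both of which raise the reporter level within 1 Ly6C class. It differed at 49 first-intron peaks: at 48 the D minus C difference exceeded the B minus A difference, and at 1, in Atn1, it was below it. Over all 45508 peaks, 277 (0.609%) were above and 10 (0.022%) below. A peak near 0 in A, B and C could be listed only through D, so the split of 48 to 1 is no measure of direction. With a minimum mean of 5 rppm, limma called 0 of the 4502 first-intron peaks that passed it and 0 of all peaks. In the blocked model 104 were above and 50 below, against 1.35% and 0.815% of all peaks. For Sik3 the steps differed by log2 2.10 (SE 0.27, adjusted p = 0.00361). Atn1 encodes a transcriptional corepressor, and its peak at chr6:124750185-124751469 had 24.6, 21.1 and 22.2 rppm in D, 39.1, 41.2 and 40.3 rppm in C, 42.8, 44.9 and 42.4 rppm in B and 44.6 and 45.8 rppm in A. That call held without replicate 1 of C or of D and was lost without any other library (adjusted p = 0.0561 to 0.171). edgeR called 0 of these differences, DESeq2 called 11 above and 1 below, and 651 had an unadjusted p under 0.05 in limma. Limma called 9 without A replicate 1, 13 without A replicate 3, between 25 and 31 when any B library, or replicate 2 or 3 of C or of D, was left out, and 0 without mouse 3 or with thinned libraries.

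The share of first-intron peaks called in D against A grew with distance from the start. Between 1 and 2 kb, 6.97% of 861 peaks were higher and 3.02% lower. Between 10 and 20 kb it was 10.5% and 5.69% of 1335 peaks, and between 50 and 100 kb 14.6% and 5.43% of 405. Beyond 100 kb, among 75 peaks, it was 18.7% and 10.7%. Peaks of later introns had 5.32% and 1.66% between 1 and 2 kb and 15.9% and 4.97% between 50 and 100 kb, and 16.2% and 5.86% beyond 100 kb. The difference between the classes was not tested. In the blocked model, 16.4% of first-intron peaks between 1 and 2 kb were called in either direction, 30.4% between 50 and 100 kb and 37.3% beyond 100 kb. Peaks of later introns had 13.0%, 31.1% and 29.7% in the same classes of distance.

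**Figure D3:**
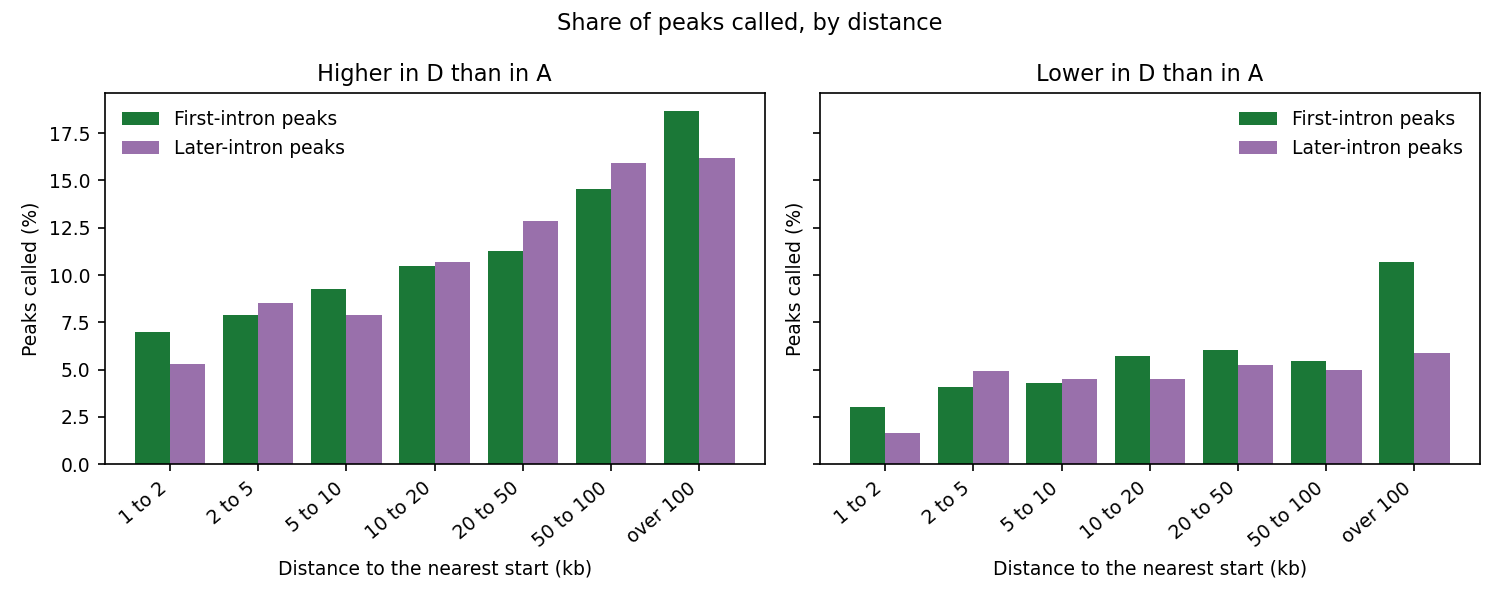
Percent of peaks called higher (left) and lower (right) in D against A, by distance to the nearest start in kb, for first-intron peaks and later-intron peaks. For first-intron peaks the higher share is 6.97% between 1 and 2 kb and 18.7% beyond 100 kb, a class of 75 peaks.

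Calls also varied with level. Among the 1578 first-intron peaks with the lowest means (up to 4.69 rppm), 18.1% were higher and 3.61% lower in D. Among the 1578 with the highest means (from 14.5 rppm), 5.07% were higher and 6.97% lower. Every listed first-intron peak reached 1 rppm in at least 3 libraries. A peak near 0 in A could therefore be listed only if it was higher elsewhere, and the 54 peaks with an A mean of at most 1 rppm are no measure of direction. By the repeat and CpG label in the table, 22.3% of 220 peaks in LINE elements, 10.7% of 469 in SINE elements and 5.26% of 171 in CpG islands were called in either direction, against 15.1% of the 4939 without a label. Over all listed peaks those shares were 22.4%, 11.3%, 3.60% and 12.4%.

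At the limit of 1000 bases, a peak just outside it lay in Kmt2c (1002 bases), with a log2 difference of 0.04. Just inside, and so not counted here, were Cd96 (1000 bases, 0.22) and Cntnap1 (999 bases, -0.24).

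Several genes had many called peaks in 1 intron, and the peaks of a gene are not independent measurements. Of 689 genes with a called first-intron peak, 449 had only higher ones, 205 only lower ones and 35 both. Among 667 genes with at least 3 first-intron peaks, all were called in the same direction at 6: Pik3r5 with 8 of 8 lower, and Gm30790, Gpm6b, Grik4, Rin3 and Sh3gl3 with 3 of 3 higher each. The genes with most such peaks were Foxp1 (31 peaks, 3 higher and 1 lower), Pip4k2a (22, 1 and 4), Ankrd44 (21, 1 and 0), Ext1 (20, 3 and 0), Filip1l (20, 2 and 0), Cd247 (19, none called) and Pitpnc1 (19, 1 and 0). Genes described in the next paragraphs were in part chosen after their values were seen.

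Pik3r5 encodes the p101 regulatory subunit of class IB PI3-kinase. All its 8 first-intron peaks, 2.86 to 32.3 kb from the start, were lower in D, with log2 differences of -1.36 to -0.69 (median -0.89). The peak at chr11:68436384-68436643 had 4.62, 3.20 and 4.72 rppm in D against 12.2 and 12.2 rppm in A (log2 -1.36, SE 0.18, adjusted p = 1.30e-04), and C with 5.89, 6.79 and 7.86 rppm and B with 9.02, 9.73 and 10.5 rppm lay between them. The most open of the 8, at chr11:68451039-68451982, had 45.4, 40.9 and 40.5 rppm in D against 69.4 and 68.3 rppm in A (log2 -0.69, SE 0.12, adjusted p = 0.00147). A neighbour at chr11:68452639-68453838 had 26.6, 25.9 and 31.7 rppm in D against 55.7 and 57.6 rppm in A (log2 -0.99, SE 0.13, adjusted p = 1.70e-04). The promoter peak, which covers the window printed above, averaged 78.6 ± 1.41 rppm in D and 91.9 ± 0.893 rppm in A (SD, n = 3 and 2) and did not pass the test (log2 -0.22, adjusted p = 0.145). Without A replicate 1 limma still called 6 of the 8, without A replicate 3 it called 5, with thinned libraries 4 and without mouse 3 it called 3.

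Gfod1, which encodes an oxidoreductase-domain protein, was the mirror case: 7 of its 8 first-intron peaks were higher in D. The peak at chr13:43262047-43262560 had 5.78, 5.09 and 6.43 rppm in D against 0.653 and 0.705 rppm in A (log2 2.01, SE 0.22, adjusted p = 2.81e-05). That peak and the called one at chr13:43246870-43247125 averaged 0.679 and 0.586 rppm in A. The direction of both is therefore in part fixed by the listing of peaks. The most open, at chr13:43268001-43269508, had 60.1, 53.5 and 60.96 rppm in D against 41.98 and 45.1 rppm in A, a much smaller difference (log2 0.41, SE 0.11, adjusted p = 0.0195). The 7 lay 35.4 to 64.1 kb from the start, and the only one not called had a log2 difference of 0.02. Without A replicate 1 or without A replicate 3 limma called 4, without D replicate 3 it called 5, and without mouse 3 it called 3.

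A run of higher peaks lay between Cd5 and Cd6, neighbouring genes of surface receptors that damp T cell receptor signalling. The noncoding RNA gene A430093F15Rik, which lies between them, had 9 of 12 first-intron peaks higher, Cd6 had 4 of 5 and Cd5 had 2 of 2. At the A430093F15Rik and Cd5 peaks given here, C and B lay above A, although limma called no B against A difference. In A430093F15Rik the peak at chr19:10763305-10764127 had 43.9, 34.9 and 38.7 rppm in D and 25.3, 28.3 and 27.4 rppm in C, with 23.8, 24.2 and 22.6 rppm in B and 16.5 and 14.2 rppm in A (log2 1.29, SE 0.12, adjusted p = 1.06e-05 for D against A). The Cd5 peak at chr19:10732876-10733145 had 4.62, 5.38 and 6.59 rppm in D and 5.50, 5.14 and 4.62 rppm in C, with 4.34, 4.46 and 3.55 rppm in B and 1.41 and 1.51 rppm in A (log2 1.40, SE 0.18, adjusted p = 1.04e-04). D and C overlapped at the Cd5 peak, and the step between them made up 6.66% of its D minus A difference. That step was -45.0% and -11.4% at the Cd6 peaks chr19:10811325-10811996 and chr19:10812887-10813451, where the mean of D lay below that of C. At the other called Cd6 peaks it was 65.4% and 54.9%. In A430093F15Rik it was -18.7% at chr19:10761989-10762398 and positive at the other called peaks. The Cd6 peak at chr19:10815878-10816269 had 8.47, 7.27 and 8.38 rppm in D against 0.544 and 1.01 rppm in A (log2 2.36, SE 0.26, adjusted p = 3.69e-05). With a mean of 0.78 rppm in A, the direction of that peak is in part fixed by the listing of peaks. The A430093F15Rik promoter peak was higher too (log2 0.58, adjusted p = 0.0253), while those of Cd5 (log2 0.40, adjusted p = 0.0509) and Cd6 (log2 0.28, adjusted p = 0.341) did not pass. Without mouse 3, 2 of the A430093F15Rik peaks, 2 of the Cd6 peaks and 1 Cd5 peak were called. Without A replicate 3 there were 2 Cd6 peaks and 1 Cd5 peak, and without A replicate 1 there was 1 Cd6 peak. Cd6 also had 2 without replicate 2 or 3 of B, replicate 3 of C, or replicate 2 or 3 of D.

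**Figure D4:**
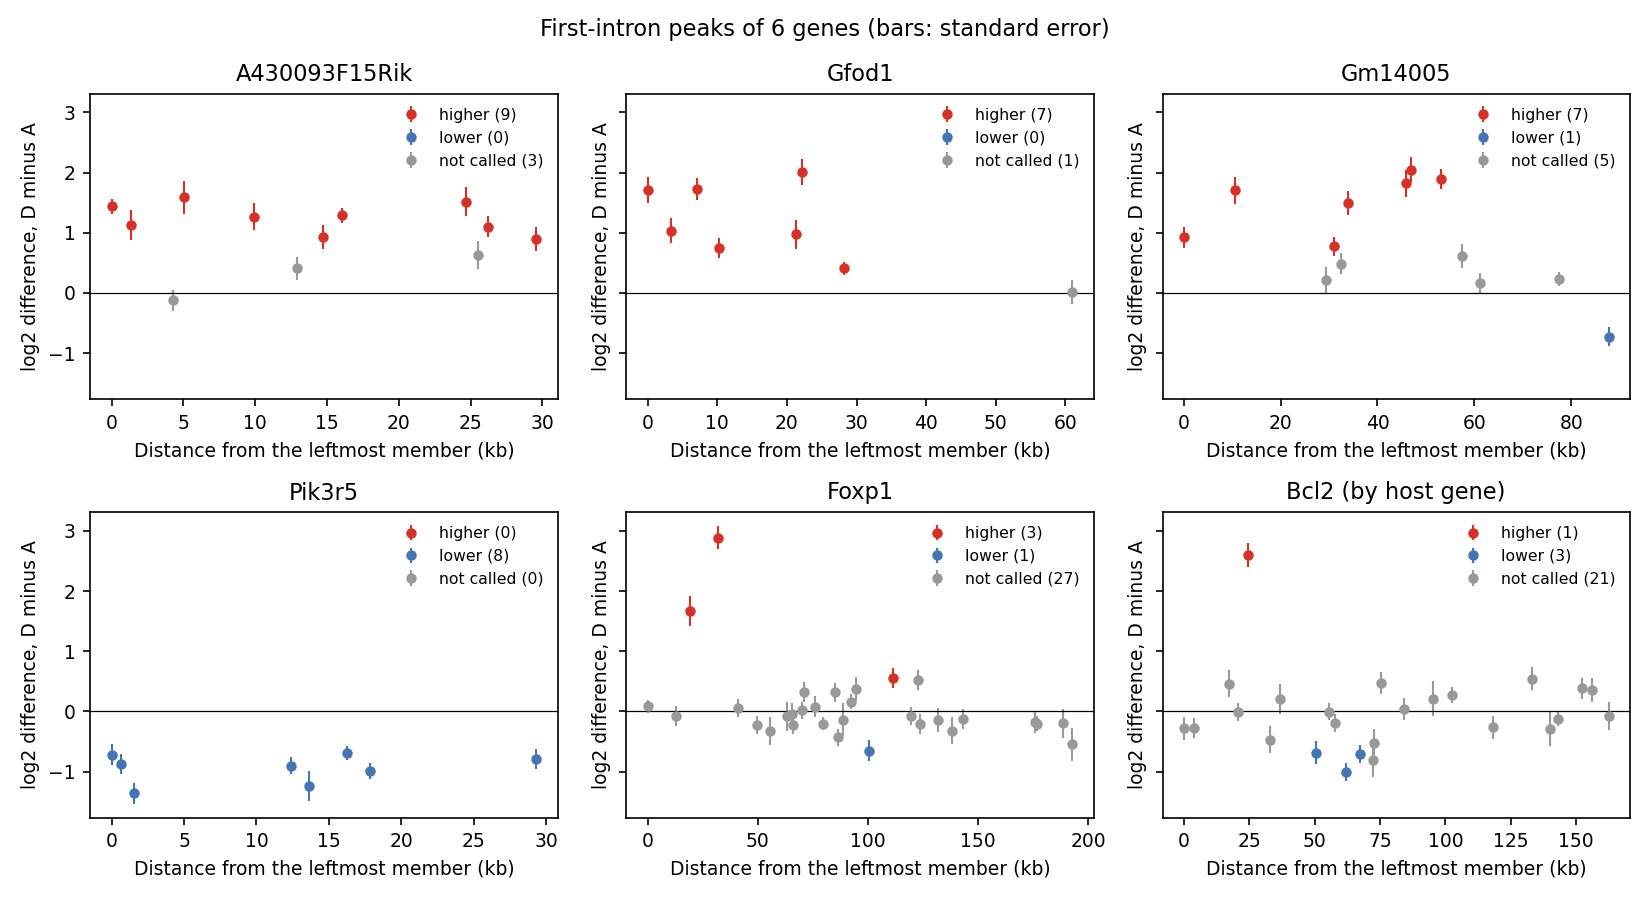
Log2 difference, D minus A, of each first-intron peak of 6 genes against its distance in kb from the leftmost such peak of the gene, with bars for the standard error and colours for the call by limma. The 8 Pik3r5 points all lie below 0, 7 of 8 Gfod1 points are called higher, and Foxp1 has 3 higher and 1 lower of 31 points and Bcl2 1 higher and 3 lower of 25.

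Gm14005, named Morrbid in RefSeq, is a long noncoding RNA gene near Bcl2l11 and is known to repress that death-promoting gene in mouse myeloid cells. Of its 13 first-intron peaks 7 were higher and 1 lower in D. Among the 7, that at chr2:128387812-128388321 averaged 0.83 rppm in A, so its direction is in part fixed by the listing of peaks. The peak at chr2:128381706-128382351 had 8.47, 9.45 and 11.9 rppm in D against 1.63 and 1.61 rppm in A (log2 2.05, SE 0.21, adjusted p = 1.58e-05). The lower peak, 6.59 kb from the start and closest to it of the 13 (chr2:128422459-128423072), had 6.93, 5.24 and 7.11 rppm in D against 11.96 and 10.5 rppm in A (log2 -0.73, SE 0.16, adjusted p = 0.00743). Without A replicate 1 that lower call was lost (adjusted p = 0.106), and without mouse 3 only 2 higher calls were left.

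The first intron of Bcl2 showed both directions. The peak at chr1:106569356-106570349, whose nearest start is that of Mir3473f, had 26.95, 24.6 and 22.7 rppm in D against 4.24 and 2.42 rppm in A (log2 2.60, SE 0.20, adjusted p = 2.17e-06). In the same intron, the peak at chr1:106606856-106607447 had 6.93, 9.31 and 7.51 rppm in D against 16.97 and 16.6 rppm in A (log2 -1.01, SE 0.15, adjusted p = 3.97e-04). In all 1 of the 25 was higher and 3 were lower, and the 21 not called had log2 differences of -0.80 to 0.54. Without A replicate 3 limma called 1 lower peak, without A replicate 1, D replicate 2 or D replicate 3 it called 2, and without mouse 3 it called 0, while the higher peak was called in each. With D replicate 1 left out, 2 were higher.

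In Foxp1 the peak described above and a second at chr6:99328333-99328991, with 3.85, 7.27 and 4.34 rppm in D against 1.20 and 0.604 rppm in A (log2 1.67, SE 0.25, adjusted p = 4.75e-04), were both higher, while 27 of the 31 were not called, with log2 differences of -0.54 to 0.52. Without mouse 3 the second was no longer called (adjusted p = 0.101). These 2 peaks averaged 0.41 and 0.90 rppm in A, so their direction is in part fixed by the listing of peaks. With a minimum mean of 5 rppm Foxp1 had 0 higher and 1 lower. The 1 lower Foxp1 call was lost without A replicate 1, A replicate 3 or D replicate 2, and 2 were higher without either A replicate. Ptk2b, which encodes the kinase Pyk2, had 6 of 14 first-intron peaks higher, among them chr14:66260169-66260912 with 28.9, 24.00 and 25.2 rppm in D against 12.6 and 9.66 rppm in A (log2 1.16, SE 0.13, adjusted p = 5.02e-05). Without A replicate 1 or without A replicate 3 it had 3, and without mouse 3 it had 0.

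Grap2 (17 peaks), an adaptor that binds SLP-76, had 1 higher and 4 lower, and Dock2 (10 peaks), a Rac exchange factor of lymphocyte migration, had 1 higher and 3 lower. Without A replicate 1 or without A replicate 3 limma called none of either gene, and Dock2 had 1 higher and 0 lower by DESeq2 or with thinned libraries.

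Promoter peaks mostly did not pass where first-intron peaks did. Of 449 genes with only higher first-intron peaks called, 364 had a peak within 1000 bases of a start, and at least 1 such peak was higher at 39 of them (10.7%) and lower at 0. Of 205 genes with only lower ones, 173 had a promoter peak, which was lower at 8 (4.62%) and higher at 2. Genes with first-intron peaks but none called had a higher promoter peak at 39 of 1760 (2.22%) and a lower one at 20 (1.14%). In genes that had both, the strongest called first-intron peak had a median log2 difference of 1.02 beside -0.03 at the most open promoter peak (387 genes, strongest peak higher), and -0.72 beside -0.12 (182 genes, strongest peak lower). The promoter difference was the larger of the 2 at 10 and 4 of these genes. The first-intron peaks were taken for their size here, which widens this gap.

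**Figure D5:**
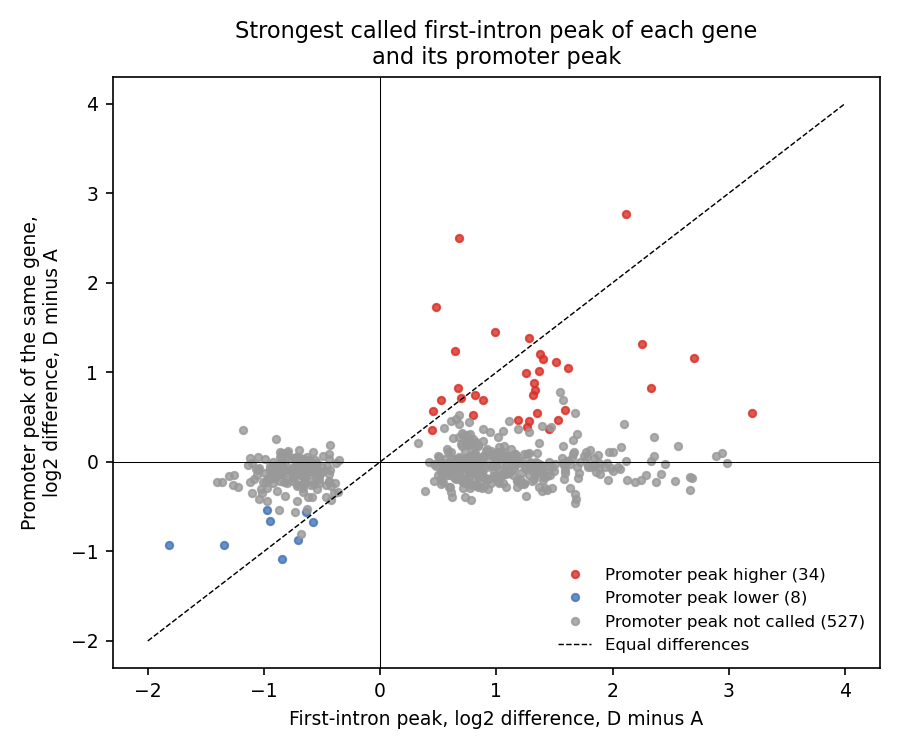
Log2 difference, D minus A, of the strongest called first-intron peak of each gene (horizontal axis) and of the most open promoter peak of the same gene (vertical axis), coloured by the call of the promoter peak. The promoter peak was higher at 34 genes and lower at 8, and most points lie near 0 on the vertical axis.

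Among 65 first-intron peaks of genes listed as negative regulators of T cell activation, 14 were higher and 0 lower in D (21.5%, against 8.7% of all peaks), with a median log2 difference of 0.15. They lay in 8 of 20 genes with such peaks: Cd5, Cd6, Dgkz, Ndfip1, Nt5e, Pag1, Rasa3 and Ubash3b. Cd6 held 4 of the 14 and its neighbour Cd5 held 2, in the run of higher peaks described above, so the 14 are not independent. Pag1 encodes the adaptor that recruits the inhibitory kinase Csk, and its peak at chr3:9766946-9767454 had 11.9, 7.27 and 9.06 rppm in D against 2.39 and 2.42 rppm in A (log2 1.59, SE 0.23, adjusted p = 2.97e-04). Ubash3b encodes a phosphatase of T cell receptor signalling, and its peak at chr9:41130477-41130960 had 4.24, 4.22 and 5.02 rppm in D against 1.09 and 1.41 rppm in A (log2 1.29, SE 0.18, adjusted p = 2.57e-04). The summed level of the 65 peaks was 755 to 807 rppm in D against 659 and 671 rppm in A. The blocked model called 19 higher and 0 lower, against 12.5% and 8.79% of all peaks. Without A replicate 3 limma called 9 higher and without mouse 3 it called 3, and quantile normalization gave 12 higher and 1 lower. Thinned libraries gave 8 of 65 higher, and a minimum mean of 5 rppm gave 5 of the 41 that passed it, with 0 lower in both. In these settings 5.97% and 8.78% of all peaks were called in either direction. Of first-intron peaks it was 6.34% and 11.1%, so the excess over the background was smaller with the minimum mean. Without D replicate 1 there were 18 and 1.

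The 104 first-intron peaks of proximal T cell receptor signalling genes were split, with 3 higher and 3 lower (2.88% each, against 8.7% and 3.74% of all peaks) and a median of -0.05. The blocked model gave 8 and 11, against 12.5% and 8.79% of all peaks. Vav3, a guanine nucleotide exchange factor, had 14.2, 13.96 and 13.4 rppm in D against 3.37 and 3.22 rppm in A at chr3:109420648-109421617 (log2 1.79, SE 0.15, adjusted p = 4.15e-06). Prkcq, the kinase that links the receptor to NF-kB, had 13.1, 13.5 and 13.5 rppm in D against 28.3 and 29.3 rppm in A at chr2:11205687-11206199 (log2 -1.05, SE 0.12, adjusted p = 5.19e-05). None of the 19 first-intron peaks of Cd247, the receptor's zeta chain, was called by limma, edgeR or DESeq2, with log2 differences of -0.48 to 0.35. With the mouse as a block limma called 2 of them lower. Without A replicate 1 or without A replicate 3 the list had 2 higher and 1 lower, without mouse 3 it had 1 and 1, and lower calls were 5 without D replicate 2 or D replicate 3 and 7 with quantile normalization.

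Genes induced by the receptor had 25 peaks, 5 higher and 1 lower, against 8.7% and 3.74% of all peaks. The lower peak was in Il2ra, which had 1 higher and 1 lower of 7. Of the 13 genes with such peaks, 9 had none called, among them Cd69, Icos, Myc and Nr4a3. In Tnfsf11, which encodes the cytokine RANKL, the peak at chr14:78304066-78304485 had 10.8, 7.999 and 10.7 rppm in D against 1.52 and 1.01 rppm in A (log2 2.26, SE 0.27, adjusted p = 5.84e-05), and its promoter peak was higher as well (log2 1.32, adjusted p = 2.12e-04). Tnfrsf9, a costimulatory receptor, had 2 of 2 higher, and Nr4a2, a nuclear receptor of the Nr4a1 family, had 1 of 1 (log2 0.52, SE 0.15, adjusted p = 0.0390). The Nr4a2 call was lost without A replicates 1 and 3 (adjusted p = 0.153 and 0.237), B replicates 2 and 3 (0.0569 and 0.0553), C replicate 3 (0.0565) or D replicates 2 and 3 (0.101 and 0.108), each left out singly, and the list kept 3 higher and 0 lower without either A library and 1 without mouse 3.

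Small GTPase regulators had 116 peaks, 18 higher (15.5%, against 8.7% of all peaks) and 6 lower (5.17%, against 3.74%), with a median of 0.05. The blocked model gave 23 and 9, against 12.5% and 8.79% of all peaks. Tbc1d4, a Rab GTPase-activating protein, had 21.9, 20.1 and 20.2 rppm in D against 4.68 and 5.84 rppm in A at chr14:101510316-101511289 (log2 1.80, SE 0.16, adjusted p = 6.11e-06). Rapgef1, an exchange factor for Rap1, had 4 of 12 higher. Leaving out A replicate 1 gave the list 8 higher and 0 lower, without A replicate 3 it had 9 and 2, without mouse 3 it had 2 and 0, and lower calls were 3 without any 1 of the B replicates or C replicate 2 and 4 without C replicate 3.

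Genes of naive homing and quiescence had 89 peaks, 7 higher (7.87%, against 8.7% of all peaks) and 9 lower (10.1%, against 3.74%), with a median of -0.13. Higher were peaks of Bach2, a repressor of effector genes (3 of 6), Foxp1 (3 of 31) and Foxo1 (1 of 15), and lower were peaks of Il7r (2 of 2), Klf7 (2 of 5), Arhgap15, Dapl1, Foxo1, Foxp1 and Klf3 (1 each). Il7r at chr15:9527924-9528951 had 37.3, 36.9 and 33.8 rppm in D against 53.5 and 49.3 rppm in A (log2 -0.50, SE 0.11, adjusted p = 0.00905), and both Il7r peaks lost their call without A replicate 1 (adjusted p = 0.120 and 0.0607). The promoter peak of Il7r, over most of the window printed above, averaged 16.4 ± 3.59 rppm in D and 18.6 ± 1.42 rppm in A (SD, n = 3 and 2) and was not called (adjusted p = 0.561). With the mouse as a block the list had 11 higher and 13 lower, against 12.5% and 8.79% of all peaks. It had 5 higher and 1 lower without A replicate 1, 6 and 2 without A replicate 3 or with thinned libraries, 6 and 5 in the model of A and D alone, and 1 and 0 without mouse 3, so that higher calls then outnumbered lower ones.

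T cell identity transcription factors had 114 peaks, 8 higher (7.02%, against 8.7% of all peaks) and 9 lower (7.89%, against 3.74%), with a median of -0.11. The blocked model gave 11 and 15, against 12.5% and 8.79% of all peaks. Tox, a regulator of CD4 lineage development and of exhaustion, had 3 of 18 higher, and Ets1, Fli1, Rora, Bcl11b, Elf1 and Aff3 had lower peaks alone. Ets1 at chr9:32705954-32706643 had 22.7, 25.5 and 26.5 rppm in D against 42.6 and 37.95 rppm in A (log2 -0.67, SE 0.11, adjusted p = 8.37e-04). The list had 7 higher and 2 lower without A replicate 1, 6 and 2 without A replicate 3, 6 and 3 with thinned libraries, 7 and 4 in the model of A and D alone and 1 and 0 without mouse 3. It had 8 and 7 without D replicate 2 or by DESeq2, and 9 and 8 without D replicate 1.

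Cytokine receptors, Jak kinases and Stats had 97 peaks, 10 higher (10.3%, against 8.7% of all peaks) and 6 lower (6.19%, against 3.74%), shares near the background. The blocked model gave 13 and 8, against 12.5% and 8.79% of all peaks. Il2rb, a chain of the interleukin 2 and 15 receptors, had 11.2, 15.9 and 21.6 rppm in D against 6.20 and 5.54 rppm in A (log2 1.28, SE 0.24, adjusted p = 0.00215), and its promoter peak was higher too (log2 1.39, adjusted p = 1.03e-05). Leaving out A replicate 1 gave 3 and 0, without A replicate 3 it had 3 and 3, without D replicate 3 it had 6 and 6 and without mouse 3 it had 0 and 0.

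The smaller lists had few peaks, to be read against 8.7% higher and 3.74% lower over all peaks, or 12.5% and 8.79% with the block. Regulatory T cell genes had 20 with 6 higher and 1 lower, in Nt5e, Tnfrsf9, Entpd1 and Il2ra (8 and 1 with the mouse as a block, 0 and 0 without mouse 3). The AP-1, NFAT and NF-kB list had 24 peaks with 4 higher and 0 lower, 3 of them in Bach2 (6 and 1 with the block, 2 and 0 without A replicate 1, 0 and 0 without mouse 3). Follicular helper genes had 26 with 2 higher (4 higher and 1 lower with the block, 0 higher and 0 lower without A replicate 1, A replicate 3 or D replicate 3, 0 higher and 1 lower without D replicate 2, 4 higher without C replicate 1). Effector and memory genes had 4 with 1 higher, in Il1r1, which was not called without mouse 3 (adjusted p = 0.279). Type I interferon genes had 8 with 0 higher and 3 lower, in Oas3, Oasl2 and Ifit3, and 1 lower without A replicate 1 or without A replicate 3, 2 without D replicate 2 and 0 without mouse 3. Marker genes of B cells had 3 first-intron peaks and those of CD8 T and NK cells 6, of which limma called none, although 2 of the 6 were lower with the mouse as a block and edgeR called 1 of the 3 higher. Markers of myeloid cells and the Ly6 cluster had no such peak. Some genes are in more than 1 list, so the lists share peaks and their counts are not independent. Of the regulatory T cell genes, Nt5e is also among the negative regulators, and Tnfrsf9 and Il2ra among the genes induced by the receptor. Bach2 is also in the naive homing list, and Vav2 and Vav3 are in both the proximal signalling and the GTPase lists.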

How the data were processed

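The deposited table gives, for 45508 peaks on mm10, the authors' annotation and nearest gene and 1 RPM value per library, under the name rppm in the file headers. Its denominator is not given in the sources used here. Bowtie and MACS2 are named, without versions, in the submitters' processing notes. The distance to the start is the deposited value, in bases, taken without its sign. All values in every library were whole multiples of 1 step within 0.0006 rppm, so whole reads were recovered (100% of values). They may hold copies of the same fragment, so they may overstate independent fragments.

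limma 3.58.1 (R 4.3.3) was fitted to log2(rppm + 1) of all 11 libraries, with a mean for each population, a variance trend and without the mouse. Its two-sided p-values had Benjamini-Hochberg adjustment over 45508 peaks and a threshold of 0.05, and adjusted p-values in the text are from limma unless another tool is named. On the recovered reads edgeR 4.0.16 and DESeq2 1.42.0 were alternatives. The number in each label is the mouse, so libraries of 1 mouse come from the same animal. Their deviations from the population means correlated at 0.183 to 0.556 (15 pairs), against -0.433 to 0.203 for different mice (30 pairs). The deviations within a population sum to 0, so positive values within mice bring negative values between mice. Mouse 3 was also the deepest in each population, and the parts of animal and depth cannot be told apart here. The limma function was also run on simulated counts with independent libraries and no mouse effect, which is no test of it on libraries that share a mouse.

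Named peaks were the 10 higher and 10 lower for D against A, and 3 each per neighbouring step, with the largest difference among called peaks whose libraries did not overlap and whose higher population averaged 5 rppm or more, 1 per gene with a proper symbol. Added were up to 4 genes per list by smallest p, the genes with most first-intron peaks, and peaks nearest the 1000 base limit. The first-intron peaks and the 16 gene lists were chosen with earlier results of these data known. Motifs were planned on the peaks and applied to promoter windows, since no genome was used. A library left alone in A is assumed to vary like the other groups. A peak's nearest gene need not be the gene it serves. Of the peaks nearest the 1000 base limit, 1 is not reported here.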

Additional observations from a re-analysis of the deposited data

Results flagged for a closer look

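At 49 first-intron peaks the D minus C step differed from the B minus A step in limma's test of that difference. Those named in the text are given here as the log2 amount by which the first step exceeded the second. It was 2.10 and 2.07 at the 2 Sik3 peaks, 2.12 at Nek6, 2.08 at Arhgap20os and 1.96 at Prrc2b. Foxp1 (chr6:99340983-99341325) had 1.69, Gfod1 (chr13:43246870-43247125) 1.62, Cd300lf 1.59 and the Bcl2 intron peak nearest Mir3473f 1.54. Gm14005 (chr2:128368576-128369008) had 1.39, Irak3 1.37, Socs5 1.31 and Tox (chr4:6882608-6883046) 1.18. At Atn1 alone the first step was below the second, by -0.75. All 14 were called with the mouse as a block, 4 by DESeq2 and 0 by edgeR, with thinned libraries or without mouse 3. A minimum mean of 5 rppm was passed by 4 of them, of which 0 were called. The Sik3, Arhgap20os and Nek6 calls held without any single library, while the other 10 were each lost without A replicate 1 (adjusted p = 0.0540 to 0.232). As above, a peak near 0 in A, B and C could be listed only through D. Leaving out single libraries does not test that limit.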

How the results depend on the processing

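No difference of a named peak and no count over all first-intron peaks changed direction under an alternative run, while the balance of calls turned in the follicular helper, naive homing and identity factor lists and in Bcl2, Dock2 and Foxp1, under the settings given beside them. All 925 calls of D against A were kept with the mouse as a block. In the same blocked model lower calls of D against A were 556, and calls were 859 for D against C, 10 for C against B, 6 for B against A and 154 for the difference of steps. Thinning to equal reads gave 323 higher and 77 lower for D against A, 151 calls for D against C and 0 for the difference of steps. A minimum mean of 5 rppm gave 289 higher, 177 and 0 for the same results. A model of A and D alone gave 116 lower. Leaving out mouse 3 gave 120 higher and 10 lower, 59 for D against C and 0 for the difference of steps, which was 11 with a pseudocount of 0.25, 80 with a pseudocount of 5 and 80 with quantile normalization. edgeR called 6 for C against B and 0 for the difference of steps, and DESeq2 called 9, 12 and, for B against A, 4. Leaving out 1 library gave 342 to 663 higher and 63 to 339 lower for D against A, 276 to 477 for D against C, 0 to 3 for C against B and 9 to 51 for the difference of steps. The causes were not tested. Of 129 D against A results for named peaks, 129 were called with the block, 125 by edgeR, 119 by DESeq2, 79 with thinned libraries and 33 without mouse 3. Population A has 2 libraries, and the D library of mouse 1 is the shallowest, which limits the precision of low peaks.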
